A study of Homo sapiens with 8 samples.

Results

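The response of ES2 control cells to LY500307 was taken from 4 of the 8 libraries of the study, 2 that received vehicle and 2 that received 5 µM LY500307, each for 48 h. ES2 is a human ovarian cancer cell line, grown here in McCoy's 5a medium with 10% serum. LY500307 is a small molecule agonist of oestrogen receptor beta. The other 4 libraries came from ES2 cells with knockout of KDM1A, a histone demethylase, and entered only the estimate of spread, the scaling, and the side by side values near the end. The comparison takes in every library that the labels give as control, with and without LY500307. The labels call the cells control without saying whether they carried a guide, a vector or a non-cutting enzyme, name no vehicle, and do not say whether the cells were a clone or a pool. The study's title asks about tumour suppression through oestrogen receptor beta. The labels do not say that the duplicates were grown apart, so p-values here rest on the spread of these samples only, and that spread may be technical.

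Oestrogen receptor beta is a nuclear receptor that binds DNA when it holds its ligand and recruits coregulators that open or close chromatin at its target genes. In ovarian epithelium and its tumours it is often described as a brake on proliferation, in contrast to oestrogen receptor alpha. The groups below follow the roles of genes in dividing cells: the cytoskeleton, DNA replication, ribosomes, metabolism, stress pathways, and signals exchanged with other cells.

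Levels are given as CPM, read counts scaled to the TMM-adjusted size of each library, which compares libraries but not genes of different length. Fold changes are log2 differences of LY500307 minus vehicle in control cells, with a standard error (SE). A gene was called higher or lower when its p-value from edgeR's quasi-likelihood test, adjusted by Benjamini-Hochberg over all 13498 genes tested, was under 0.05. Positions are those of GENCODE release 44 lifted to GRCh37.

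LY500307 changed many genes by a little. Among the lists described here, 6 of 10 alpha and beta tubulins, 14 of 24 origin licensing and helicase genes and 67 of 78 ribosomal protein genes were called lower, with 0 higher in each. Of 42 hypoxia and glycolysis genes 19 were called higher and 8 lower, and HMOX1, the haem oxygenase gene, rose from 10.2 and 8.79 to 18.98 and 23.3 CPM. Of the 13498 genes tested, 1665 (12.3%) were called higher and 1885 (14.0%) lower, which is 26.3% in all. The median size of the change among called genes was 0.284 on the log2 scale. Changes of at least 2-fold were called for 186 genes higher and 45 lower. In 3539 of the 3550 called genes both libraries of 1 group lay above both of the other, and the same held for 63.1% of all genes tested. The split between directions depends on the scaling: with library totals in place of TMM, 2831 genes were called higher and 1011 lower, so the share of higher calls went from 46.9% to 73.7%, while the median over all genes moved from 0.0052 to 0.078. Leaving out any 1 of the 4 libraries gave 941 to 1015 genes higher and 1205 to 1311 lower, and counts of at least 4 list members below are followed by their range over these 4 fits where it departs from the count by more than 1.5 times.

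The 4 control libraries held 24348937 to 28319768 gene counts, and the 2 LY500307 libraries were the deeper pair. Genes with a count numbered 15253 and 15471 with vehicle and 15787 and 15809 with LY500307. Of uniquely aligned reads 11.5% and 11.7% fell outside any gene with vehicle, and 10.7% and 10.9% with LY500307. Alignments that were not unique numbered 49.6 and 50.5 per 100 unique ones with vehicle and 46.6 in both LY500307 libraries, the 10 most abundant genes took 5.65% and 5.64% against 5.29% and 5.35% of gene counts, and TMM factors were 0.961 and 0.963 against 1.01 in both. These measures separate the groups, and their part in the results was not tested. The receptor genes were barely detected. ESR2, which encodes oestrogen receptor beta, stood at 0.0426 and 0.299 CPM with vehicle and 0.175 and 0.214 CPM with LY500307, and was below the filter. For oestrogen receptor alpha, ESR1 stood at 0.512 and 0.469 CPM with vehicle and 0.384 and 0.392 CPM with LY500307, with no detectable difference at such a depth. GPER, whose product is a membrane receptor of oestrogen, stood at 0.682 and 0.853 CPM with vehicle and 0.769 and 1.11 CPM with LY500307 and was not called.

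A pair of libraries stood apart in some low genes. 5 genes that were high in knockout cells and near 0 in control cells (BST2, BTNL8, CLEC5A, FOLR3 and MGAM, chosen after their values were seen) summed to 0.316% and 0.317% of their vehicle knockout level in the vehicle libraries. They summed to 0.336% and 1.32% in LY500307 replicates 1 and 2, and MGAM at 1.53 CPM and CLEC5A at 0.678 CPM made up most of the sum in replicate 2. BST2 and BTNL8 were not highest there. A wider set held 253 tested genes at least 4-fold higher in vehicle knockout than in vehicle control cells. With LY500307, 63 of them (24.9%) were called higher in control cells and 0 lower, beside 12.3% and 14.0% of all tested genes. Their median was 0.77, or 0.51 without LY500307 replicate 2 and 0.67 to 0.88 without any 1 other control library. The choice used the vehicle control values, so the set is no separate support for a rise. In vehicle replicate 2, the 10 markers of ovarian and epithelial cells under 5 CPM summed to 14.04 CPM, against 7.545 in vehicle replicate 1 and 7.269 and 7.67 with LY500307. The epithelial adhesion gene EPCAM stood at 0.853 and 2.13 CPM with vehicle and 0.454 and 0.428 CPM with LY500307 and was called lower at -1.75, and without vehicle replicate 2 it was not called at -0.94 (edgeR adjusted p = 0.252).

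The labelled cell type was set against its markers. The 13 ovarian and epithelial markers summed to 618 and 626 CPM with vehicle and to 731 and 742 with LY500307, and 3 of the 10 tested were called higher and 1 lower, with a median of -0.39. The sum was led by KRT7 and KRT18, keratins of simple epithelia, which stood at 252 and 262 CPM with vehicle and 329 and 342 CPM with LY500307 and at 334 and 320.2 CPM with vehicle and 365 and 360.1 CPM with LY500307 respectively and were both called higher. CDH1 at -1.30, KRT19 at -0.89 and CLDN4 at -0.84 were at most 3.029 CPM and were not called. The ovarian carcinoma markers PAX8 and WT1 were near the floor in every library, PAX8 at 1.66 and 2.304 CPM with vehicle and 1.503 and 1.39 CPM with LY500307 and WT1 at 1.92 and 1.58 CPM with vehicle and 1.12 and 1.68 CPM with LY500307, and MUC16 did not exceed 0.04266 CPM. Of genes known from endothelial cells, TIE1 stood at 219 and 231 CPM with vehicle and 223 and 238 CPM with LY500307 and was not called, and CDH5 stood at 103 and 101 CPM with vehicle and 80.9 and 86.2 CPM with LY500307 and was called lower, at -0.29 (SE 0.0639, edgeR adjusted p = 0.000878), while PECAM1 did not exceed 0.175 CPM and CLDN5 and ERG had no count. PTPRC, the common leukocyte antigen gene, had at most 0.0427 CPM. Summed levels of the 14 haematopoietic markers were 98.76 and 102.3 CPM with vehicle and 113.6 and 115.1 with LY500307, nearly all of it CD68, a lysosomal protein gene. The 11 fibroblast and mesothelial markers summed to 107.5 and 108.6 CPM with vehicle and to 135.2 and 132.5 with LY500307, led by PDGFRA, and DCN had at most 0.107 CPM. The 10 endothelial markers summed to 309.6 to 336 CPM over the 4 libraries. Their part in the results below was not tested. In a bulk sample, fewer cells of a type and less RNA per cell cannot be told apart.

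The direction of change went with the level of the gene. Genes were split into quintiles by their mean CPM over the 4 control libraries. In the lowest quintile, under 3.54 CPM, the median change was 0.229, and 10.2% of genes were called higher and 2.59% lower. In the highest quintile, above 94.2 CPM, the median was -0.065, and 8.44% were called higher and 33.3% lower. The 3 quintiles between had medians of 0.071, 0.0095 and -0.015. In knockout cells the same quintiles had medians of 0.109, 0.055, 0.015, 0.0039 and -0.043. Quintiles of transcript length had medians between -0.0090 and 0.025 and quintiles of GC content between -0.0027 and 0.029, over 12670 genes with a matched transcript. A list of abundant genes is therefore read against 33.3% lower, and a list of scarce ones against a median of 0.229.

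**Figure D1:**
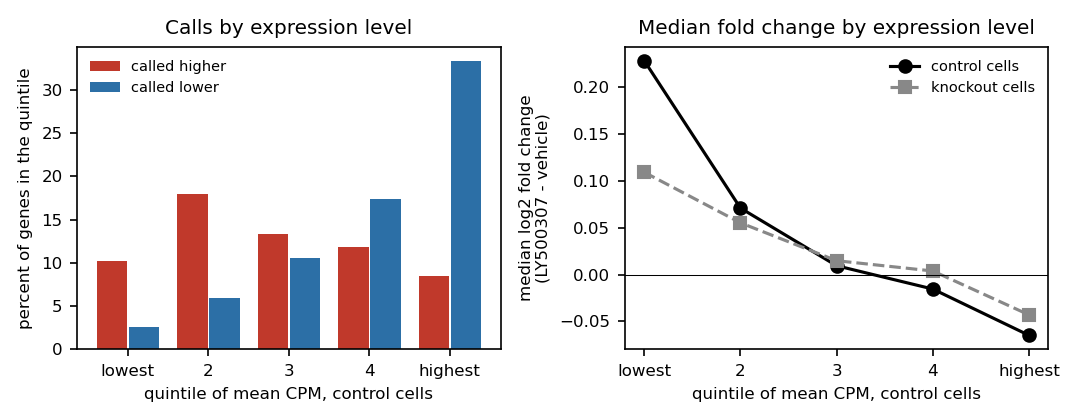
Left, percent of genes called higher or lower with LY500307 in each quintile of mean CPM in control cells. Right, the median log2 fold change in each quintile, for control and for knockout cells. Calls of lower genes rise from 2.59% in the lowest quintile to 33.3% in the highest, and the median falls from 0.229 to -0.065 in control cells.

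Alpha and beta tubulins, the paired subunits from which microtubules are built, were lower in the majority of tested members. 6 of 10 tested members were called lower and 0 higher, with a median of -0.44, and the 6 were called under every alternative tried. Their summed level was 6208 and 6442 CPM with vehicle and 4320 and 4472 CPM with LY500307. Cells are known to degrade tubulin messages while they are being translated when free tubulin dimers accumulate, and the signal for this lies in the first 4 amino acids of the nascent chain. The coding starts of the genes are printed for that reason, from the GENCODE transcripts, with the first 4 codons in capitals:
TUBA1B: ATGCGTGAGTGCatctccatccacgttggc
TUBA1C: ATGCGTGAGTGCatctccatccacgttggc
TUBA1A: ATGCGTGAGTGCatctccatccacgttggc
TUBB: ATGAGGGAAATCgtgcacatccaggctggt
TUBB6: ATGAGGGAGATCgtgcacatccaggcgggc
TUBB2C: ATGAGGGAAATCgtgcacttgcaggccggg
TUBB3: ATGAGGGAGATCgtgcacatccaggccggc
TUBE1: ATGACCCAGTCGgtggtcgtacaggtcggc
TUBG1: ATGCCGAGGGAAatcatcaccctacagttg

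In the printed alpha tubulins the 4 codons read methionine, arginine, glutamate and cysteine, and in the beta tubulins methionine, arginine, glutamate and isoleucine. Of the genes in the count files with an annotated coding start, 17 begin with one of these 2 starts, and all 17 are tubulins. Among 12310 tested genes with an annotated coding start, 10 have it, of which 6 were called lower, 0 higher and 4 neither. These 10 are the tested alpha and beta tubulins already counted, so the start adds no separate support. Whether decay during translation lowered these messages was not tested. TUBE1 and TUBG1, whose epsilon and gamma tubulins are found at centrioles and at sites of microtubule nucleation, lack it.

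TUBA1B (chromosome 12, 49521565 to 49525180) stood at 1125 and 1197 CPM with vehicle and 717 and 733 CPM with LY500307, a log2 fold change of -0.68 (SE 0.0413, edgeR adjusted p = 2.86e-14). Its neighbour TUBA1C (chromosome 12, 49582519 to 49668383) stood at 686 and 739.6 CPM with vehicle and 457 and 483 CPM with LY500307, or -0.60 (SE 0.0452, edgeR adjusted p = 7.9e-12). The main beta tubulin gene TUBB (chromosome 6, 30685212 to 30693315) stood at 2633 and 2672 CPM with vehicle and 1819.9 and 1891 CPM with LY500307, or -0.52 (SE 0.0391, edgeR adjusted p = 7.9e-12). In all 3, both LY500307 libraries lay far below both vehicle libraries, by more than the replicates differed. TUBB6 (chromosome 18, 12307668 to 12344319) stood at 809 and 838 CPM with vehicle and 598 and 605 CPM with LY500307, or -0.45 (SE 0.0411). TUBB2C, now named TUBB4B (chromosome 9, 140135739 to 140138159), stood at 769 and 804 CPM with vehicle and 567 and 599.5 CPM with LY500307, or -0.43 (SE 0.0424). TUBB3 (chromosome 16, 89987800 to 90005169), known as the beta tubulin of neurons, stood at 112 and 113 CPM with vehicle and 82.7 and 82.4 CPM with LY500307, or -0.45 (SE 0.0542). These 3 falls were of nearly equal size although the levels of the genes spanned 112 to 838 CPM.

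The 4 members with the same start that were not called were low, with 1 exception. TUBA1A (chromosome 12, 49578469 to 49582863), whose printed coding start is identical to that of TUBA1B and TUBA1C, stood at 69.7 and 70.3 CPM with vehicle and 73.1 and 72.03 CPM with LY500307, or 0.05 (SE 0.0598, edgeR adjusted p = 0.56). TUBB2A stood at 4.86 and 6.02 CPM with vehicle and 4.68 and 5.07 CPM with LY500307, and TUBA4A and TUBA8 had at most 0.555 CPM in any control library. The 3 alpha tubulin genes of chromosome 12 are near copies, and how the counting split reads between them is uncertain. Of the tubulins without the start, TUBE1 (chromosome 6, 112391866 to 112408732) stood at 12.8 and 15.2 CPM with vehicle and 20.9 and 20.6 CPM with LY500307 and was called higher, at 0.57 (SE 0.0984, edgeR adjusted p = 5.47e-05). TUBG1 at -0.11, TUBG2 at 0.13 and TUBD1 at -0.03 were not called.

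**Figure D2:**
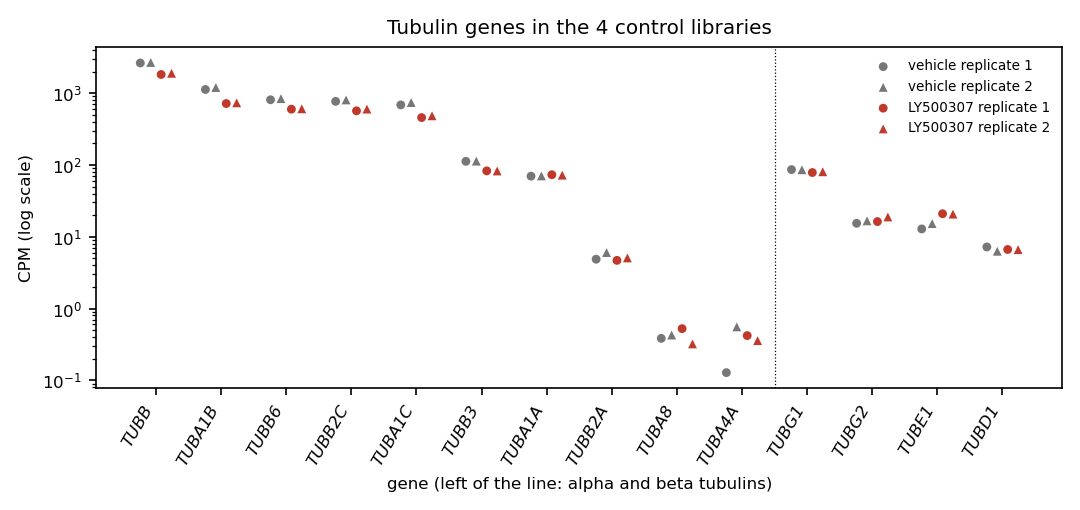
CPM on a log scale for the tubulin genes in each of the 4 control libraries, with alpha and beta tubulins left of the line and gamma, delta and epsilon tubulins right of it. TUBA1B, TUBA1C, TUBB, TUBB6, TUBB2C and TUBB3 are lower in both LY500307 libraries, TUBA1A is level, and TUBE1 is higher in both.

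Genes whose products fold tubulin or bind microtubules were also examined. In the folding and turnover list 22.7% of tested members were called lower. That is under the 33.3% of the highest quintile of level, where the list's median of 118 CPM lies. Of 22 genes for tubulin folding and for the turnover of tubulin messages, 5 were called lower and 0 higher (1 to 3 lower without 1 library, 1 with library totals), and TBCD, a cofactor that assembles the dimer, was the first of them at -0.32 (SE 0.0598). Among 24 microtubule-associated proteins 8 were higher and 4 lower (3 to 4 and 2 to 3 without 1 library, 5 higher by DESeq2). STMN1, which encodes the dimer-sequestering protein stathmin, stood at 497 and 491 CPM with vehicle and 406 and 403 CPM with LY500307, or -0.29 (SE 0.0409). The plus-end protein gene MAPRE2 went the other way, at 47.7 and 44.8 CPM with vehicle and 62.8 and 59.8 CPM with LY500307, or 0.41 (SE 0.0666). TUBGCP6 (-0.34), a subunit of the gamma tubulin ring complex, was named after its values were seen.

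DNA replication genes were called lower far more often than higher. 14 of 24 origin licensing and helicase genes were called lower and 0 higher, with a median of -0.21 (11 to 13 lower without 1 library). Of 33 genes for polymerases, the sliding clamp and chromatin assembly, 13 were lower and 1 higher, with a median of -0.11. In nucleotide synthesis 15 of 30 genes were lower and 0 higher, with a median of -0.15. Beside 14.0% of all tested genes and 33.3% of the highest quintile called lower, these are shares of 58.3%, 39.4% and 50%.

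RRM2 (chromosome 2, 10260825 to 10351851), the regulated subunit of ribonucleotide reductase, stood at 548 and 536 CPM with vehicle and 363 and 376 CPM with LY500307, or 68.2% of vehicle. TYMS (chromosome 18, 657653 to 673578), which makes thymidylate, stood at 626 and 610.1 CPM with vehicle and 478 and 479.7 CPM with LY500307, a log2 fold change of -0.37 (SE 0.0412, edgeR adjusted p = 4.66e-08). RRM1, the catalytic partner of RRM2, stood at 373 and 359.7 CPM with vehicle and 291 and 288 CPM with LY500307, or -0.34 (SE 0.0431). All 3 feed the supply of deoxynucleotides, and their replicates differed by far less than the groups. CAD, which starts pyrimidine synthesis, fell at -0.36 (SE 0.0496), CTPS (now CTPS1) at -0.27 (SE 0.0461) and the purine enzyme gene PFAS at -0.31 (SE 0.0541).

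MCM3, a subunit of the replicative helicase (chromosome 6, 52128812 to 52149679), stood at 379 and 383 CPM with vehicle and 293 and 294 CPM with LY500307, or -0.38 (SE 0.0438, edgeR adjusted p = 7.77e-08). MCM7 stood at 522 and 535 CPM with vehicle and 433 and 434 CPM with LY500307, and MCM5 at 165 and 179 CPM with vehicle and 133 and 139 CPM with LY500307. CDC6, which loads the helicase at origins, went from 179 and 176 to 142 and 142 CPM. GINS2, part of the active helicase, went from 68.5 and 66.8 to 49.98 and 51.5 CPM, and MCM10 from 108 and 109.8 to 87.7 and 85.8 CPM. The falls of these 6 ranged from -0.29 to -0.41, and both LY500307 libraries lay under both vehicle libraries in each. UHRF1, which recruits DNA methyltransferase to new DNA, stood at 113 and 118 CPM with vehicle and 81.7 and 77.9 CPM with LY500307, or -0.53 (SE 0.0592). The histone chaperone subunit CHAF1A stood at 112 and 113 CPM with vehicle and 82.8 and 79.9 CPM with LY500307, or -0.47 (SE 0.0582). FEN1, which trims lagging strand fragments, fell at -0.33, the checkpoint adaptor CLSPN at -0.32, the polymerase gene POLE at -0.38 and the clamp gene PCNA at -0.27.

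Promoters of these genes are known to be bound by E2F factors, and a set of them is shown with matches in capitals. The motif searched was TTCCCGC on either strand, or in its place the form TTCGCGC, the form TTGGCGC or the form TTGCCGC, within 250 bases before to 50 bases after the RefSeq start on GRCh38.p14. The 150 bases before the start are printed in the direction of the gene:
UHRF1, chr19:4909351-4909500, plus strand: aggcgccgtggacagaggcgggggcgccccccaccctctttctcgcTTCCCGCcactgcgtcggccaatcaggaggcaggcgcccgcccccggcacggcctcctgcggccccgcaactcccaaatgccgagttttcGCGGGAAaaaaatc
TYMS, chr18:657503-657652, plus strand: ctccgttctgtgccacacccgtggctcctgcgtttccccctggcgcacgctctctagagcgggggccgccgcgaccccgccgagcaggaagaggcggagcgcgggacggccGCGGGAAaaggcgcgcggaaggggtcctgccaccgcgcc
GINS2, chr16:85688955-85689104, minus strand: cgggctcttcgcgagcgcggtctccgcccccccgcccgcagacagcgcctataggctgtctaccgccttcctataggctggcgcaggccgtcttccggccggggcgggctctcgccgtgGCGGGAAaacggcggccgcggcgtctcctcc

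UHRF1 has matches at -104 to -98 and at -14 to -8 from the start, TYMS at -39 to -33 and GINS2 at -31 to -25. Of the 75 tested genes of the 3 replication lists with a promoter in the table, 39 (52%) held a match, as did 20 of the 37 called lower (54.05%). The share was 20.65% of 10308 promoters of tested genes, 27.7% of those called lower and 16.16% of those called higher. RRM2, with the smallest p of the 3 lists, has none in this window. A match describes letters and shows no binding.

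Cell cycle and DNA repair genes were also called lower more often than higher. Among 34 cyclins, kinases, E2F factors and inhibitors 18 were lower and 2 higher, with a median of -0.15. E2F1, which drives entry into S phase, stood at 84.995 and 91.3 CPM with vehicle and 59.3 and 60.1 CPM with LY500307, or -0.56 (SE 0.0616, edgeR adjusted p = 3.11e-08). Its dimer partner TFDP1 stood at 256 and 263 CPM with vehicle and 190.01 and 186 CPM with LY500307, or -0.47 (SE 0.0468). CCNE2, the cyclin E2 gene, stood at 92.4 and 93.2 CPM with vehicle and 63.95 and 62.9 CPM with LY500307, and CDC25A, which activates cyclin-dependent kinases, at 88.1 and 87.7 CPM with vehicle and 59.6 and 61.4 CPM with LY500307. These 4 lay at about the same relative level, with falls of -0.47 to -0.56. CDK6, the G1 kinase gene, fell at -0.37 (SE 0.0446), and the oncogenic cyclin gene CCND1 stood at 1088 and 1090.4 CPM with vehicle and 961 and 953 CPM with LY500307, or -0.19 (SE 0.03804). The inhibitor gene CDKN2B, which encodes p15, went the other way, at 11.4 and 11.1 CPM with vehicle and 18.3 and 19.8 CPM with LY500307, or 0.76 (SE 0.108, edgeR adjusted p = 2.78e-06).

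In the repair list of homologous recombination, Fanconi and mismatch genes 21 of 41 were lower and 2 higher, with a median of -0.22 (11 to 15 lower without 1 library, 11 with library totals). MSH6, a mismatch sensor, stood at 259 and 265 CPM with vehicle and 195 and 199 CPM with LY500307, or -0.41 (SE 0.0458, edgeR adjusted p = 4.09e-08). FANCI, of the Fanconi complex, stood at 179.8 and 176 CPM with vehicle and 132 and 131 CPM with LY500307, or -0.44 (SE 0.0504). RAD54L, which remodels DNA in strand exchange, went from 45.4 and 43.5 to 30.7 and 31.2 CPM, or -0.52 (SE 0.0775). BRIP1 fell at -0.37 and XRCC2 at -0.38.

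Mitosis genes went both ways. Of 48, 8 were higher and 10 lower, with a median of -0.05 (3 to 6 and 6 to 8 without 1 library, and 14 and 5 with library totals, where the median is 0.03). As shares of the 48, 16.7% were higher and 20.8% lower, beside 8.44% and 33.3% in the highest quintile of level. The list's median level of 166.9 CPM lies in that quintile. KIF18A, a kinesin that controls spindle length, stood at 98.5 and 94.3 CPM with vehicle and 123 and 124 CPM with LY500307, or 0.35 (SE 0.0568, edgeR adjusted p = 1.82e-05). The mitotic kinase gene AURKA stood at 201 and 204 CPM with vehicle and 237 and 239 CPM with LY500307, or 0.23 (SE 0.0458), and HMMR at 180.1 and 170.3 CPM with vehicle and 220.2 and 198 CPM with LY500307. TOP2A, which untangles chromosomes, stood at 766 and 727 CPM with vehicle and 655 and 633 CPM with LY500307, or -0.21 (SE 0.042995), BIRC5 at 193 and 199.8 CPM with vehicle and 167 and 163 CPM with LY500307 and SMC2 at 156 and 155 CPM with vehicle and 132 and 133 CPM with LY500307. The first 3 were higher and the last 3 lower in both LY500307 libraries. Histone genes were also divided, with 6 of 18 higher and 5 lower. HIST1H2BK stood at 14.6 and 15.9 CPM with vehicle and 23.7 and 23.7 CPM with LY500307 and HIST1H2BD at 1.07 and 0.981 CPM with vehicle and 3.49 and 3.39 CPM with LY500307, while the replacement variants H2AFV and H2AFZ fell at -0.32 and -0.30.

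**Figure D3:**
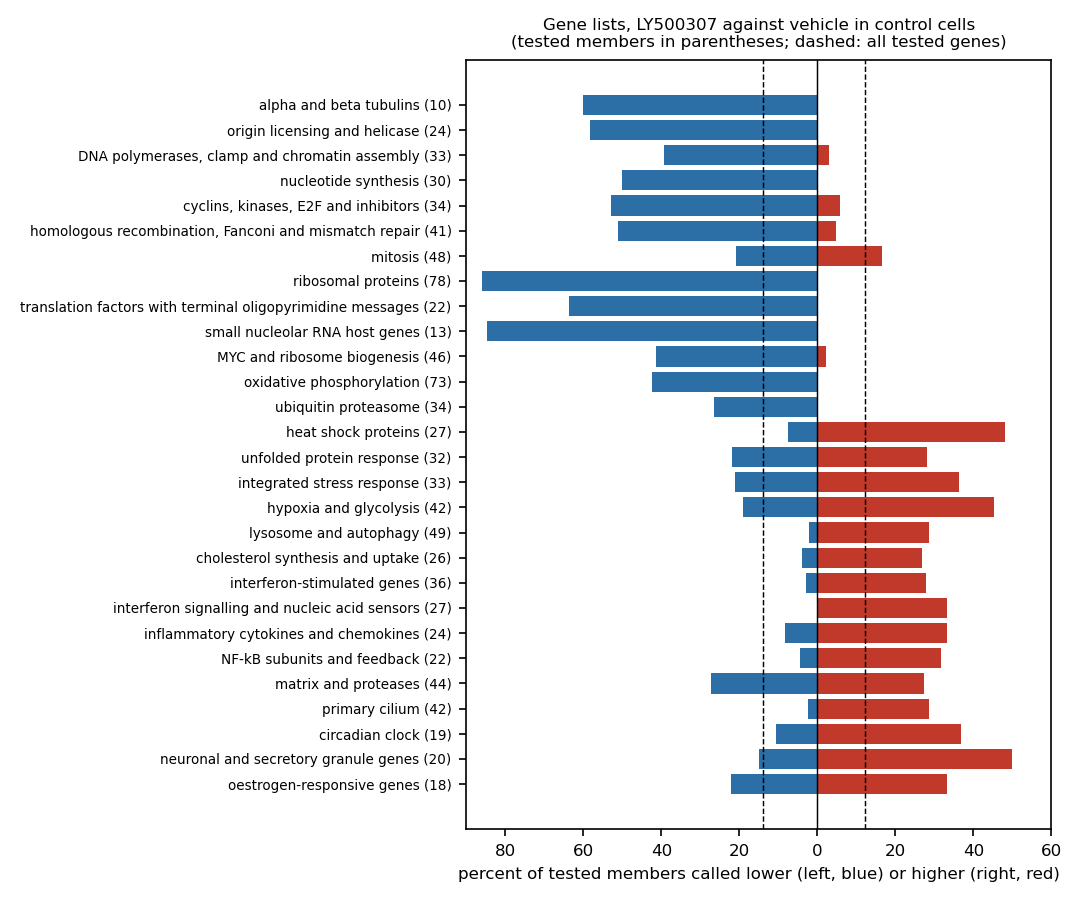
Percent of tested members called lower (left) or higher (right) for each gene list, with the number of tested members in parentheses and dashed lines at the shares of all tested genes, 14.0% lower and 12.3% higher. Ribosomal proteins, small nucleolar RNA host genes, translation factors, tubulins and replication genes reach far to the left, and heat shock, hypoxia and neuronal lists to the right.

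Messages for the translation apparatus fell broadly and by small amounts. 67 of 78 ribosomal protein genes were called lower and 0 higher, with a median of -0.24, against 33.3% called lower in the highest quintile of level. Their summed level was 34401 and 35786 CPM with vehicle and 29929 and 30288 CPM with LY500307. The count was 47 to 63 without 1 library, 50 with library totals, and 30 without vehicle replicate 2 and LY500307 replicate 2 together. RPLP0, the stalk protein gene, stood at 791 and 811 CPM with vehicle and 641 and 642 CPM with LY500307, or -0.32 (SE 0.0388, edgeR adjusted p = 1.7e-07). RPL13A stood at 314 and 324 CPM with vehicle and 234 and 251 CPM with LY500307, or -0.40 (SE 0.0491), and RPS12 at 457 and 488 CPM with vehicle and 384 and 369 CPM with LY500307. RPS29, at 76.3 and 88.6 CPM with vehicle and 52.7 and 58.9 CPM with LY500307, and RPS23, at 269.9 and 253 CPM with vehicle and 167 and 199 CPM with LY500307, had the largest falls of the 6 named, at -0.56 and -0.52, and their LY500307 replicates differed by more than those of RPLP0. RPL10 fell at -0.33. Ribosomal proteins have many processed pseudogenes that share reads with them, so their levels are uncertain. RPL22L1 (chromosome 3, 170582664 to 170587997), a paralogue of RPL22 that is not in that list, stood at 172 and 172 CPM with vehicle and 114 and 108 CPM with LY500307, or -0.63 (SE 0.0571, edgeR adjusted p = 6.22e-10).

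Translation factors whose messages begin, like those of ribosomal proteins, with a run of pyrimidines were lower in 14 of 22 and higher in 0, with a median of -0.18. EEF2, the elongation factor that moves the ribosome along the message (chromosome 19, 3976054 to 3985461), stood at 4225 and 4361 CPM with vehicle and 3379.7 and 3603 CPM with LY500307, or -0.30 (SE 0.0357, edgeR adjusted p = 1.54e-07). The scaffold gene GNB2L1, now RACK1, stood at 1942 and 2016 CPM with vehicle and 1667 and 1746 CPM with LY500307, and EEF1G at 502 and 531 CPM with vehicle and 434 and 433 CPM with LY500307. NAP1L1 stood at 728 and 701 CPM with vehicle and 587 and 563 CPM with LY500307. All 4 had both LY500307 libraries under both vehicle libraries, with EEF2 at 81.3% of its vehicle mean.

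Host genes of small nucleolar RNAs, whose introns release guides for ribosomal RNA modification, had the largest median fall of the lists on translation. 11 of 13 were lower and 0 higher, with a median of -0.47. SNHG12 (chromosome 1, 28905050 to 28909644) stood at 27.5 and 27.004 CPM with vehicle and 14.1 and 16.1 CPM with LY500307, or -0.85 (SE 0.0889, edgeR adjusted p = 1.11e-08). SNHG1 (chromosome 11, 62619450 to 62623425) stood at 150.4 and 163 CPM with vehicle and 105 and 117 CPM with LY500307, or -0.50 (SE 0.0551, edgeR adjusted p = 3.11e-08). SNHG8 stood at 44.8 and 48.6 CPM with vehicle and 31.9 and 31.5 CPM with LY500307, SNHG7 at 74.2 and 81.7 CPM with vehicle and 53.2 and 59.7 CPM with LY500307 and SNHG3 at 49.9 and 52.1 CPM with vehicle and 36.2 and 38.5 CPM with LY500307. The spliced transcripts of most of these genes are known to be removed by decay coupled to translation. SNHG4 fell at -0.64 (SE 0.104), GAS5, known from growth arrest, at -0.31 (SE 0.0545), SNHG6 at -0.31 (SE 0.0599) and SNHG5 at -0.30 (SE 0.0882). The low SNHG9 and SNHG10 fell at -1.04 and -0.50. SNHG11 at -0.02 and TAF1D at -0.04 were the 2 members that were not called.

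Factors that build ribosomes fell in part. Of 46 MYC partners and ribosome biogenesis genes, 19 were lower and 1 higher, with a median of -0.10 (12 to 16 lower without 1 library). NOP56, a core protein of small nucleolar particles, stood at 449 and 444 CPM with vehicle and 343 and 347 CPM with LY500307, or -0.37 (SE 0.0419, edgeR adjusted p = 5.33e-08). The helicase gene DDX21 stood at 896 and 867 CPM with vehicle and 716 and 712 CPM with LY500307, or -0.30 (SE 0.0393, edgeR adjusted p = 5.46e-07), and PA2G4 at 401 and 401 CPM with vehicle and 321 and 319 CPM with LY500307. RRS1 fell at -0.35 and UTP20 at -0.28. MXI1, an antagonist of MYC, was the member that rose, at 34.2 and 33.1 CPM with vehicle and 48.2 and 50.7 CPM with LY500307, or 0.55 (SE 0.0745). Oxidative phosphorylation genes were lower in 31 of 73 and higher in 0, with a median of -0.14 (14 to 26 lower without 1 library, 17 with library totals). COX8A, a subunit of cytochrome oxidase, stood at 236 and 257 CPM with vehicle and 194 and 202 CPM with LY500307, or -0.32 (SE 0.05001). CYCS, the gene of cytochrome c, stood at 224 and 221 CPM with vehicle and 189 and 174 CPM with LY500307, or -0.29 (SE 0.0485), and ATP5G1, of the ATP synthase, fell at -0.40 (SE 0.0639).

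Proteasome genes fell in 9 of 34 (26.5%) and rose in 0, which is below the 33.3% called lower in the highest quintile of level, with a median of -0.05 that is 0.03 with library totals (3 to 6 lower without 1 library, 2 with library totals). PSMA7 had the smallest p, at 317 and 349.8 CPM with vehicle and 277 and 284 CPM with LY500307. The intermediate filament gene VIM stood at 8711 and 8464 CPM with vehicle and 7383 and 7619.97 CPM with LY500307, or -0.20 (SE 0.0324). Actins ACTB and ACTG1, near-identical in their coding sequence, fell at -0.25 (SE 0.0389) and -0.26 (SE 0.0374). The collagenase gene MMP1, highest of all genes in the control libraries, stood at 19189 and 18780.1 CPM with vehicle and 18117 and 17636 CPM with LY500307, and its call at -0.09 (edgeR adjusted p = 0.0332) was lost without any 1 of the 4 libraries.

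Hypoxia and glycolysis genes rose more often than they fell, with 19 of 42 higher, 8 lower and a median of 0.12 (5 to 6 lower without 1 library, 4 with library totals). PFKFB4 (chromosome 3, 48555117 to 48599448), which sets the level of the glycolytic activator fructose bisphosphate, stood at 16.96 and 17.02 CPM with vehicle and 34.1 and 37.6 CPM with LY500307, or 1.08 (SE 0.0875, edgeR adjusted p = 4.08e-11). NDRG1, a target of hypoxia-inducible factor, went from 35.7 and 37.9 to 60.1 and 63.6 CPM, or 0.75 (SE 0.0685, edgeR adjusted p = 6.82e-10). CA9, the surface carbonic anhydrase gene, went from 8.82 and 9.85 to 17.998 and 17.6 CPM, or 0.93 (SE 0.125). All 3 were higher in both LY500307 libraries, and CA9 stood at 1.903 times its vehicle mean. ALDOC went from 14.9 and 14.6 to 25.02 and 25.8 CPM, or 0.78 (SE 0.109). GAPDH and ENO1, abundant enzymes of lower glycolysis, went the other way: GAPDH stood at 4751 and 4872 CPM with vehicle and 3880.4 and 4034 CPM with LY500307, or -0.28 (SE 0.0346, edgeR adjusted p = 2.12e-07), and ENO1 at 4105 and 4285 CPM with vehicle and 3560.2 and 3657 CPM with LY500307, or -0.22 (SE 0.0351). GAPDH and ENO1 also have processed pseudogenes that can take reads.

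Heat shock genes rose in 13 of 27 and fell in 2, with a median of 0.10 (6 to 10 higher without 1 library). The inducible HSP70 copies HSPA1A and HSPA1B, whose reads cannot be cleanly split, stood at 11.98 and 11.5 CPM with vehicle and 19.4 and 17.6 CPM with LY500307 and at 13.4 and 10.8 CPM with vehicle and 20.2 and 19.9 CPM with LY500307 respectively. DNAJB4, a co-chaperone gene, stood at 26.3 and 24.4 CPM with vehicle and 40.1 and 36.4 CPM with LY500307, or 0.59 (SE 0.0836, edgeR adjusted p = 2.52e-06). HSPA4L rose at 0.34 (SE 0.0761) and HSPA2 at 0.46 (SE 0.107). The mitochondrial chaperonin gene HSPD1 stood at 870.4 and 826 CPM with vehicle and 763 and 723 CPM with LY500307 and fell, at -0.19 (SE 0.0421). The constitutive HSPA8, at 2488 and 2398 CPM with vehicle and 2643 and 2586 CPM with LY500307, was called at 0.10 (edgeR adjusted p = 0.0443), a call that was lost without any 1 library.

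Stress genes of the endoplasmic reticulum and of the integrated stress response were divided. Of 32 genes of the unfolded protein response 9 were higher and 7 lower (4 to 7 and 4 to 6 without 1 library, 13 and 4 with library totals). As shares of the 32, 28.1% were higher and 21.9% lower, beside 8.44% and 33.3% in the highest quintile of level. The list's median of 104 CPM lies in that quintile. HERPUD1, which aids removal of misfolded proteins, stood at 60.95 and 64.7 CPM with vehicle and 84.96 and 90.4 CPM with LY500307, or 0.48 (SE 0.0572, edgeR adjusted p = 1.39e-07). MANF stood at 123 and 137 CPM with vehicle and 158 and 166 CPM with LY500307, or 0.31 (SE 0.0545), and HSPA5, the chaperone BiP, at 1148 and 1149 CPM with vehicle and 1273 and 1303 CPM with LY500307, or 0.17 (SE 0.0377). P4HB, a disulphide isomerase gene, was lower, at 1137 and 1186 CPM with vehicle and 960.5 and 986 CPM with LY500307 and -0.26 (SE 0.0404). The lectin chaperone gene CALR fell at -0.18 (SE 0.03703), HSP90B1 at -0.20 (SE 0.0414) and SEC61B, of the protein import channel, at -0.27 (SE 0.0609). In the integrated stress response list 12 of 33 were higher and 7 lower (6 to 10 and 4 to 6 without 1 library, 13 and 4 with library totals). DDIT4, an inhibitor of mTOR complex 1, stood at 23.2 and 21.8 CPM with vehicle and 39.2 and 43.2 CPM with LY500307, or 0.87 (SE 0.0914, edgeR adjusted p = 1.24e-08). GDF15, a secreted stress hormone gene, went from 1.58 and 1.88 to 3.704 and 3.53 CPM, or 1.07 (SE 0.214). ATF4, the transcription factor of this response, fell, at 249 and 254 CPM with vehicle and 205 and 211 CPM with LY500307, or -0.27 (SE 0.0453). SLC7A1 at -0.30 and PPP1R15A at -0.23 fell with it, and SLC3A2 rose at 0.24. Of 20 cytosolic tRNA synthetases 2 were higher, AARS at 0.16 and RARS at 0.14, and 2 lower, VARS at -0.20 and QARS at -0.18. With library totals 7 were higher and 0 lower. The TMM calls are 10% each way, beside 8.44% higher and 33.3% lower in the highest quintile of level, where the list's median lies.

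HMOX1, the haem oxygenase gene that is a target of both NRF2 and BACH1 (chromosome 22, 35776354 to 35790207), stood at 10.2 and 8.79 CPM with vehicle and 18.98 and 23.3 CPM with LY500307, or 1.15 (SE 0.1004, edgeR adjusted p = 2.4e-10). Of 29 NRF2 targets, HMOX1 among them, 4 were higher and 5 lower (2 to 5 and 3 to 5 without 1 library, 8 and 3 with library totals). As shares of the 29, 13.8% were higher and 17.2% lower, near the 12.3% and 14.0% of all tested genes, with a median of 0.02. SQSTM1, the autophagy receptor gene, was higher, at 223 and 243 CPM with vehicle and 297 and 307 CPM with LY500307, or 0.37 (SE 0.0457). TXNRD1, the thioredoxin reductase gene, was lower, at 1331 and 1299.7 CPM with vehicle and 1128 and 1117 CPM with LY500307, or -0.23 (SE 0.0371), as was TXN at -0.26 (SE 0.0573). TALDO1 and TKT, of the pentose phosphate pathway, fell at -0.23 and -0.16. Of 11 tested metallothionein and metal transport genes 1 was higher, the zinc exporter gene SLC30A1 at 0.44, and 2 were lower (4 and 0 with library totals). With TMM these are 9.09% and 18.2%, beside 8.44% and 33.3% in the highest quintile of level, where the list's median lies.

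Lysosome and autophagy genes rose in 14 of 49 and fell in 1, with a median of 0.06 (10 to 13 higher without 1 library). GABARAPL1, of the family that coats autophagosomes, stood at 16.2 and 14.8 CPM with vehicle and 25.4 and 26.5 CPM with LY500307, or 0.75 (SE 0.0899, edgeR adjusted p = 1.57e-07). NEU1, a sialidase gene, stood at 46.7 and 53.03 CPM with vehicle and 66.5 and 67.7 CPM with LY500307, or 0.43 (SE 0.0689). NBR1 rose at 0.30 (SE 0.04905) and the cholesterol exporter gene NPC1 at 0.32 (SE 0.0592). Each of these 4 was higher in both LY500307 libraries. Cholesterol synthesis and uptake genes rose in 7 of 26 and fell in 1 (4 to 7 higher without 1 library, 12 with library totals). TM7SF2, a sterol reductase gene, went from 3.45 and 2.94 to 8.25 and 5.67 CPM, or 1.12 (SE 0.1897). DHCR7, the last enzyme of the pathway, stood at 954 and 979 CPM with vehicle and 1060.1 and 1114 CPM with LY500307, or 0.17 (SE 0.0415), and SQLE at 104 and 99.5 CPM with vehicle and 122 and 118 CPM with LY500307. MVK rose at 0.40, SC4MOL (now MSMO1) at 0.30 and CYP51A1 at 0.23. Among 24 genes of fatty acid synthesis and liver X receptor targets 6 were higher and 5 lower (3 to 4 and 2 to 4 without 1 library, 8 and 2 with library totals). FASN and ACACA fell, FASN at 827 and 882 CPM with vehicle and 707 and 753 CPM with LY500307, or -0.23 (SE 0.0516), and ACACA at -0.24 (SE 0.0505). The desaturase gene FADS2 rose at 0.34 (SE 0.0662) and INSIG2, which holds the sterol regulators back, at 0.41 (SE 0.0906).

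Of 36 interferon-stimulated genes 10 were called higher and 1 lower, with a median of 0.24. 14 of the 36 were in the lowest quintile of level, where the median of all genes was 0.229. SAMD9 (chromosome 7, 92728826 to 92747336), an antiviral factor gene, stood at 81.9 and 78.5 CPM with vehicle and 110.2 and 108 CPM with LY500307, or 0.45 (SE 0.0539, edgeR adjusted p = 1.7e-07). Its neighbour SAMD9L stood at 8.27 and 8.28 CPM with vehicle and 14.3 and 14.9 CPM with LY500307, or 0.82 (SE 0.113). IFIT1 (chromosome 10, 91152303 to 91166244), which binds foreign RNA caps, stood at 4.31 and 4.44 CPM with vehicle and 9.26 and 8.81 CPM with LY500307, or 1.05 (SE 0.156, edgeR adjusted p = 5.61e-06). Family members IFIT2 and IFIT3 stood at 3.28 and 2.64 CPM with vehicle and 6.08 and 6.03 CPM with LY500307 and at 15.8 and 16.2 CPM with vehicle and 22.3 and 24.2 CPM with LY500307 respectively. GBP1, a guanylate-binding protein gene, went from 4.43 and 4.095 to 7.97 and 8.42 CPM, or 0.94 (SE 0.145). The 6 were higher in both LY500307 libraries, from 1.36 times the vehicle mean for SAMD9 to 2.07 times for IFIT1. Levels of the other 5 beside SAMD9 were at most 24.2 CPM.

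The interferon-stimulated response element is shown in 2 of these promoters, as GAAANNGAA on either strand in capitals, from the same RefSeq windows:
IFIT1, chr10:89392473-89392622, plus strand: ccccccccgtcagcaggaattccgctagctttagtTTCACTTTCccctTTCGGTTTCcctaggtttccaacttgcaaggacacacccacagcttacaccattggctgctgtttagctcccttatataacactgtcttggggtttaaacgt
SAMD9, chr7:93117980-93118129, minus strand: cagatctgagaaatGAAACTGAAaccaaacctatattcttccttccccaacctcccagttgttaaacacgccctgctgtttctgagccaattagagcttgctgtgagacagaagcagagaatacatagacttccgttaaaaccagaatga

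IFIT1 has matches at -115 to -107 and -102 to -94 from its start, and SAMD9 1 match at -136 to -128. The motif was in 22 of 29 promoters of the list (75.86%) and in 5 of 8 of the list's called genes (62.5%), beside 6.432% of promoters of all tested genes. Promoters of all genes called higher held it in 6.126%. Of 27 genes for interferon receptors, signalling and nucleic acid sensors 9 were higher and 0 lower (2 to 7 without 1 library, 15 with library totals). STAT2 stood at 24.8 and 26.4 CPM with vehicle and 29.6 and 33.4 CPM with LY500307, or 0.30 (SE 0.0791), IRF9 at 4.86 and 3.97 CPM with vehicle and 6.57 and 6.99 CPM with LY500307, or 0.62 (SE 0.166), and the adaptor gene MAVS at 171 and 167 CPM with vehicle and 189 and 196 CPM with LY500307. TLR3, which senses double-stranded RNA, had at most 1.19 CPM. Of 19 genes of MHC class I presentation 2 were higher (10.5%) and 3 lower (15.8%), near the 12.3% and 14.0% of all tested genes. With library totals 6 were higher and 2 lower. TAP1 and PSMB9, which supply peptides to class I molecules, rose at 0.41 and 0.76, and TAP2 fell at -0.23.

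Inflammatory cytokines and chemokines rose in 8 of 24 and fell in 2, with a median of 0.24, and 12 of the 24 were in the lowest quintile of level (5 to 7 higher without 1 library). IL1B (chromosome 2, 113587328 to 113594393), the interleukin 1 beta gene, stood at 73.02 and 70.01 CPM with vehicle and 127 and 128 CPM with LY500307, or 0.83 (SE 0.0544, edgeR adjusted p = 1.88e-13). IL8, now CXCL8 (chromosome 4, 74606236 to 74609433), the main neutrophil attractant, stood at 320.4 and 295 CPM with vehicle and 435 and 377 CPM with LY500307, or 0.40 (SE 0.0526, edgeR adjusted p = 8.12e-07). CXCL5, a chemokine of the same receptor family, went the other way, at 890.1 and 854 CPM with vehicle and 704 and 607 CPM with LY500307, or -0.41 (SE 0.0468, edgeR adjusted p = 6.06e-08). CXCL3 also fell, from 11.7 and 11.9 to 9.02 and 7.28 CPM, or -0.53 (SE 0.1204). IL24 went from 1.53 and 1.11 to 3.35 and 4.25 CPM, or 1.52 (SE 0.207), and was at 1.34 without LY500307 replicate 2. TSLP, an alarmin of epithelial cells, stood at 9.85 and 10.3 CPM with vehicle and 14.05 and 13.7 CPM with LY500307, or 0.46 (SE 0.115).

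NF-kB subunits and feedback genes rose in 7 of 22 and fell in 1 (3 to 6 higher without 1 library). BIRC3, an inhibitor of apoptosis, stood at 8.14 and 8.57 CPM with vehicle and 12.5 and 13.1 CPM with LY500307, or 0.61 (SE 0.109, edgeR adjusted p = 7.29e-05). TNFAIP3, which encodes the A20 feedback enzyme, stood at 17.6 and 16.7 CPM with vehicle and 20.97 and 22.1 CPM with LY500307, or 0.33 (SE 0.0869). ICAM1 rose at 0.24 (SE 0.0611), TNIP1 at 0.22 (SE 0.04899) and NFKB2 at 0.23 (SE 0.0643). Among 27 cytokine receptors 6 rose and 2 fell (2 to 4 higher without 1 library, 10 with library totals, 3 by DESeq2). IL7R (chromosome 5, 35852797 to 35879705) stood at 8.31 and 8.06 CPM with vehicle and 19.9 and 17.3 CPM with LY500307, or 1.18 (SE 0.125, edgeR adjusted p = 1.52e-08), and IL10RB at 15.7 and 14.7 CPM with vehicle and 20.6 and 21.6 CPM with LY500307, or 0.47 (SE 0.0922). The leptin receptor gene LEPR (chromosome 1, 65886335 to 66107242) fell, at 18.2 and 19.6 CPM with vehicle and 10.8 and 10.8 CPM with LY500307, or -0.81 (SE 0.106, edgeR adjusted p = 7.01e-07).

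Immediate early and growth factor signals were mixed. Of 24 immediate early factors 7 rose and 4 fell (4 to 6 and 3 to 4 without 1 library). JUN, a subunit of AP-1, stood at 394 and 403 CPM with vehicle and 317 and 309 CPM with LY500307, or -0.35 (SE 0.0465, edgeR adjusted p = 1.01e-06), and IER2 at 67.3 and 73.4 CPM with vehicle and 52.9 and 53.4 CPM with LY500307, or -0.40 (SE 0.0635). FOSB, another AP-1 gene, rose from 5.63 and 5.802 to 8.35 and 9.13 CPM, or 0.61 (SE 0.129), and IER3 stood at 92.1 and 92.6 CPM with vehicle and 114 and 122 CPM with LY500307. The ERK list had 6 of 30 higher and 7 lower (3 to 5 and 4 to 6 without 1 library). As shares of the 30, 20% were higher and 23.3% lower, beside 8.44% and 33.3% in the highest quintile of level. The list's median of 98.66 CPM lies in that quintile. EREG, an epidermal growth factor receptor ligand gene, stood at 80.6 and 77.5 CPM with vehicle and 121 and 107 CPM with LY500307, or 0.53 (SE 0.0594, edgeR adjusted p = 4.39e-08). The phosphatase gene DUSP1 rose at 0.36 (SE 0.0539), DUSP7 fell at -0.36 (SE 0.0639) and the feedback inhibitor gene SPRY4 stood at 112 and 111 CPM with vehicle and 82.3 and 85.9 CPM with LY500307, or -0.41 (SE 0.0552). In the BCL2 family 3 of 22 were higher and 6 lower (2 to 4 lower without 1 library, 2 with library totals and 2 by DESeq2). MCL1, which protects cells from apoptosis (chromosome 1, 150533371 to 150552214), stood at 647 and 641 CPM with vehicle and 499 and 489 CPM with LY500307, or -0.38 (SE 0.0415, edgeR adjusted p = 2.66e-08). Its relative BCL2A1 fell at -0.31 (SE 0.07304), and BMF, a pro-apoptotic gene, went from 1.19 and 1.66 to 3.35 and 2.78 CPM.

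**Figure D4:**
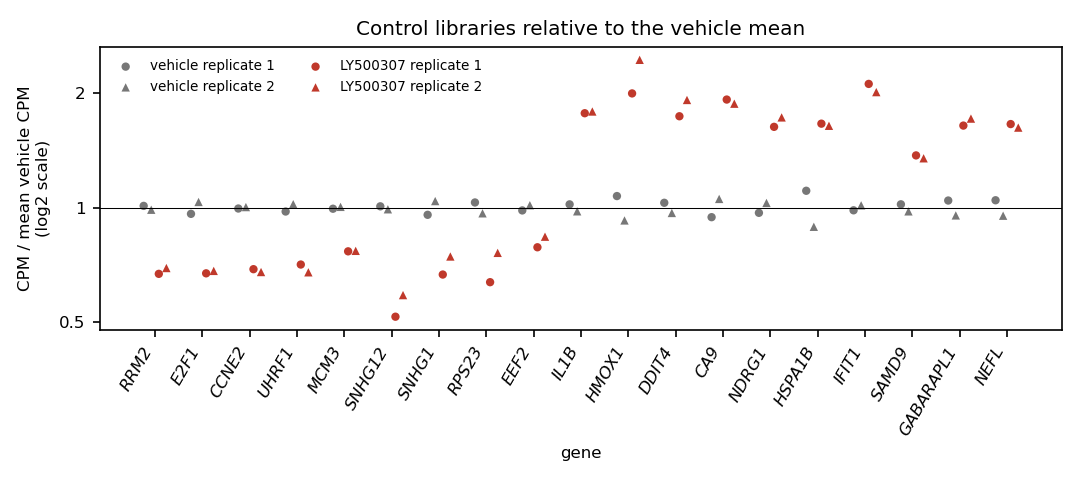
CPM of selected genes in each of the 4 control libraries divided by the mean of the vehicle libraries, on a log2 scale. HMOX1 and IFIT1 lie near 2 in both LY500307 libraries and RRM2 and SNHG12 under 1, while the vehicle libraries stay close to 1.

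Matrix and protease genes changed in both directions, with 12 of 44 higher and 12 lower (6 to 10 and 5 to 8 without 1 library, 18 and 4 with library totals). Each direction held 27.3% of the 44, beside 8.44% higher and 33.3% lower in the highest quintile of level. The list's median of 197.6 CPM lies there. MMP2 (chromosome 16, 55423612 to 55540603), the gelatinase A gene, stood at 38.6 and 41.2 CPM with vehicle and 74.1 and 85.9 CPM with LY500307, or 1.00 (SE 0.0595, edgeR adjusted p = 1.88e-14). TIMP3 (chromosome 22, 33197691 to 33259028), an inhibitor of such proteases, stood at 350.4 and 332 CPM with vehicle and 523 and 518 CPM with LY500307, or 0.61 (SE 0.0463, edgeR adjusted p = 8e-12). MMP3, the stromelysin gene, stood at 30.9 and 35.02 CPM with vehicle and 47.2 and 66.6 CPM with LY500307, or 0.79 (SE 0.0858), and at 0.51 without LY500307 replicate 2. PLAU, the urokinase gene, stood at 588 and 568 CPM with vehicle and 674 and 681 CPM with LY500307, or 0.23 (SE 0.03996), and THBS1 at 205 and 196 CPM with vehicle and 249 and 259 CPM with LY500307, or 0.34 (SE 0.05303). Lower were ADAMTS1, at 802 and 823 CPM with vehicle and 625 and 649 CPM with LY500307, or -0.35 (SE 0.041003, edgeR adjusted p = 9.74e-08), and the collagen gene COL6A3, at 219 and 218 CPM with vehicle and 168 and 164 CPM with LY500307, or -0.40 (SE 0.05399, edgeR adjusted p = 1.25e-06).

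Among integrins, cadherins and mesenchymal factors 11 of 31 were higher and 5 lower (5 to 9 and 2 to 5 without 1 library). ITGB3 stood at 32.7 and 31.2 CPM with vehicle and 50.4 and 53.5 CPM with LY500307, or 0.70 (SE 0.0778, edgeR adjusted p = 3.81e-08), and ITGB5 at 139.8 and 152 CPM with vehicle and 191 and 199 CPM with LY500307, or 0.42 (SE 0.0574). ITGA6, a laminin receptor subunit, stood at 713 and 673 CPM with vehicle and 627 and 588 CPM with LY500307, or -0.19 (SE 0.0434). Of 24 YAP targets 4 were higher (16.7%) and 7 lower (29.2%), or 6 and 4 with library totals. The list's median of 188.6 CPM lies in the highest quintile of level, where 8.44% were higher and 33.3% lower. ANKRD1, one of the 4 that rose, stood at 436 and 432 CPM with vehicle and 659 and 583 CPM with LY500307, or 0.52 (SE 0.0508, edgeR adjusted p = 3.5e-09). PTPN14 fell at -0.30 (SE 0.0422) and FJX1 at -0.37 (SE 0.0538). In the TGF-beta and BMP list 10 of 40 were higher and 5 lower (5 to 9 and 2 to 4 without 1 library, 13 and 3 with library totals). The ligand gene TGFB2 stood at 23.1 and 23.4 CPM with vehicle and 30.8 and 33.03 CPM with LY500307, or 0.46 (SE 0.0838), the inhibitor gene SMAD7 at 1.79 and 1.75 CPM with vehicle and 3.18 and 4.17 CPM with LY500307, or 1.05 (SE 0.211), and the target ID3 at 13.3 and 17.9 CPM with vehicle and 22.3 and 26.9 CPM with LY500307, or 0.65 (SE 0.115). BMP2 fell, from 14.7 and 14.5 to 9.93 and 10.7 CPM, or -0.50 (SE 0.105). Of 31 WNT genes 2 rose, DKK1 and FZD7, and 1 fell, CTNNB1, while 8 were higher with library totals. With TMM these are 6.45% and 3.23%, under the 12.3% and 14.0% of all tested genes. The secreted antagonist gene DKK1 stood at 441 and 431 CPM with vehicle and 610.1 and 559 CPM with LY500307, or 0.42 (SE 0.04799, edgeR adjusted p = 5.58e-08), and CTNNB1, the gene of beta-catenin, at 478 and 487 CPM with vehicle and 414 and 410.3 CPM with LY500307, or -0.23 (SE 0.0407).

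The nuclear receptor list had 9 of 33 higher and 2 lower (4 to 6 and 1 to 2 without 1 library). VDR, the vitamin D receptor gene, stood at 7.67 and 6.83 CPM with vehicle and 10.3 and 11.6 CPM with LY500307, or 0.60 (SE 0.119, edgeR adjusted p = 0.000322). CYP24A1, the enzyme that this receptor induces, went from 0.256 and 0.299 to 1.61 and 1.32 CPM, or 2.38 (SE 0.462). RARG stood at 13.3 and 9.98 CPM with vehicle and 17.5 and 16.3 CPM with LY500307 and NR1H3, the liver X receptor alpha gene, at 3.54 and 4.69 CPM with vehicle and 6.81 and 6.71 CPM with LY500307, or 0.72 (SE 0.162). The orphan receptor gene NR2F2 fell, at 226 and 232 CPM with vehicle and 198 and 186 CPM with LY500307, or -0.25 (SE 0.0472). Coregulators and partners of the CoREST complex numbered 10 of 31 higher and 4 lower (2 to 5 and 1 to 3 without 1 library). KDM1A itself, the enzyme of that complex (chromosome 1, 23345936 to 23410182), stood at 220.03 and 219 CPM with vehicle and 238 and 241 CPM with LY500307, and its call at 0.13 (edgeR adjusted p = 0.0439) was lost without any 1 library. The coactivator gene NCOA3 rose at 0.33 (SE 0.0699) and PHF21A at 0.43 (SE 0.0998), and PRMT1 fell at -0.25 (SE 0.0484).

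Genes known to respond to oestrogen in breast cells numbered 6 of 18 higher and 4 lower (4 to 5 and 1 to 4 without 1 library), so no common direction was seen. IGFBP4 stood at 8.65 and 9.34 CPM with vehicle and 13.3 and 15.8 CPM with LY500307, or 0.69 (SE 0.126, edgeR adjusted p = 0.0001), EFEMP1 at 49.3 and 53.3 CPM with vehicle and 68.6 and 64.2 CPM with LY500307, or 0.37 (SE 0.0718), and CA12 at 3.37 and 4.35 CPM with vehicle and 5.73 and 6.17 CPM with LY500307, or 0.62 (SE 0.166). The aryl hydrocarbon receptor list had 7 of 14 higher and 1 lower (4 to 6 higher without 1 library). AHR stood at 36.5 and 37.1 CPM with vehicle and 55.6 and 50.98 CPM with LY500307, or 0.53 (SE 0.0711, edgeR adjusted p = 9.51e-07), its partner gene ARNT at 39.4 and 37.6 CPM with vehicle and 46.3 and 49.4 CPM with LY500307, or 0.31 (SE 0.0678), and the target CYP1B1 went from 0.9804 and 0.811 to 2.097 and 2.39 CPM. Of 19 circadian genes 7 were higher and 2 lower, with a median of 0.27 (4 to 6 and 0 to 2 without 1 library). BHLHE41 stood at 24.4 and 24.9 CPM with vehicle and 33.4 and 35.9 CPM with LY500307, or 0.49 (SE 0.0815, edgeR adjusted p = 2.81e-05), BHLHE40 at 31.3 and 31.9 CPM with vehicle and 41.1 and 41.6 CPM with LY500307, or 0.39 (SE 0.0687), and NFIL3 at 19.6 and 19.6 CPM with vehicle and 25.8 and 26.01 CPM with LY500307, or 0.40 (SE 0.0865). Of the core clock, CLOCK fell at -0.28 (SE 0.0917), while ARNTL at 0.19, CRY1 at 0.06, CRY2 at 0.24 and PER2 at -0.25 were not called.

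Primary cilium genes rose in 12 of 42 and fell in 1, with a median of 0.12 (4 to 7 higher without 1 library, 7 by DESeq2). DISP2 (chromosome 15, 40650420 to 40670822), which takes part in release of hedgehog ligand, stood at 2.94 and 2.99 CPM with vehicle and 7.37 and 7.49 CPM with LY500307, or 1.33 (SE 0.181, edgeR adjusted p = 1.34e-06). BBS2 stood at 36.7 and 32.1 CPM with vehicle and 46.1 and 43.6 CPM with LY500307, or 0.38 (SE 0.0768), IFT140 at 12.02 and 12.2 CPM with vehicle and 17.3 and 15.7 CPM with LY500307, or 0.45 (SE 0.109), and ARL3 was the member that fell, at -0.42 (SE 0.0874). Neuronal and secretory granule genes rose in 10 of 20 and fell in 3, with a median of 0.36, and 6 of the 20 were in the lowest quintile. NEFL, the light neurofilament gene, stood at 28.3 and 25.8 CPM with vehicle and 44.98 and 44.02 CPM with LY500307, or 0.72 (SE 0.0859). ENO2 stood at 127 and 133 CPM with vehicle and 159 and 163 CPM with LY500307, or 0.31 (SE 0.0538). VGF went from 2.47 and 3.797 to 7.72 and 6.24 CPM, SCG2 from 1.36 and 1.45 to 3.88 and 3.46 CPM and SYP from 0.597 and 0.597 to 2.24 and 1.89 CPM. These 3 had at most 7.72 CPM and were higher in both LY500307 libraries.

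Outside the lists, the rule for the largest changes at 5 CPM or more named further genes. Among the rises, REEP6 went from 2.34 and 2.22 to 5.696 and 6.06 CPM, or 1.36 (SE 0.186, edgeR adjusted p = 1.35e-06). PLCH2, a phospholipase gene, went from 1.71 and 1.88 to 4.44 and 5.78 CPM, or 1.51 (SE 0.233). SH2D1B (chromosome 1, 162365058 to 162381928), a signalling adaptor gene known from lymphocytes, went from 2.43 and 1.75 to 6.43 and 5.14 CPM, or 1.47 (SE 0.177, edgeR adjusted p = 1.64e-07). The phosphodiesterase gene PDE2A went from 2.899 and 2.52 to 5.56 and 6.24 CPM, or 1.12 (SE 0.166), and KAZALD1 from 2.6002 and 2.304 to 4.89 and 5.32 CPM, or 1.06 (SE 0.206). These 5 had at most 6.43 CPM in any library. Among the falls, ARHGAP22 (chromosome 10, 49654079 to 49864310), a gene of a GTPase-activating protein, stood at 66.6 and 63.6 CPM with vehicle and 39.1 and 38.7 CPM with LY500307, or -0.74 (SE 0.06605, edgeR adjusted p = 3.83e-10). FAM120C stood at 19.1 and 21.4 CPM with vehicle and 11.4 and 12.6 CPM with LY500307, or -0.76 (SE 0.105), and PXMP2, a peroxisomal channel gene, at 18.5 and 17.9 CPM with vehicle and 11.8 and 9.63 CPM with LY500307, or -0.77 (SE 0.111). PKI55 went from 13.6 and 13.1 to 5.77 and 7.28 CPM, RGS5, a regulator of G protein signalling, from 6.95 and 6.1004 to 3.63 and 3.21 CPM, and MGC16121 from 6.14 and 7.04 to 2.41 and 3.42 CPM. By these values PKI55, RGS5 and MGC16121 were lower genes and fell by more, in proportion, than ARHGAP22. The pseudogene FKBP1AP1, which shares reads with its parent, went from 21.5 and 20.9 to 12.4 and 13.6 CPM. DNHD1 fell at -0.74, IDAS at -0.72 and GPR98, now ADGRV1, at -0.80.

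The response in knockout cells was set beside these values, with the difference between the responses tested in the same fit. The contrasts share no library. Of 13498 genes 218 (1.62%) were called for the difference, 71 with a more positive and 147 with a more negative response in knockout cells, and 145 of the 218 were also called in control cells. For the difference, 95 to 134 genes were called without 1 control library, the fewest without LY500307 replicate 2. Of the genes called in control cells 1473 were also called in knockout cells in the same direction and 28 in the opposite one. The 6 called tubulins had knockout log2 fold changes of -0.39 to -0.74 and no called difference. TUBA1A fell in knockout cells, at -0.29 against 0.05, a difference of -0.34 (SE 0.0856, edgeR adjusted p = 0.0325), and this call was lost without LY500307 replicate 2. RRM2 at -0.48, TYMS at -0.44, MCM3 at -0.41, UHRF1 at -0.46 and E2F1 at -0.44 were lower in knockout cells as well. Ribosomal proteins were lower in 49 of 78 there, and the difference was called for 5. HMOX1 at 0.84, IL1B at 0.61, IL8 at 0.37 and IFIT1 at 1.10 were higher there as well.

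Differences were called for several genes named above. RPL22L1 rose in knockout cells, at 0.26, while it fell in control cells, a difference of 0.89 (SE 0.0835, edgeR adjusted p = 1.53e-08). SLC25A15, a mitochondrial ornithine carrier gene, did the same, at -0.34 in control and 0.30 in knockout cells, a difference of 0.63 (SE 0.1202, edgeR adjusted p = 0.00226). SNHG4 and SNHG1 fell in control cells and not detectably in knockout cells, at 0.05 and -0.12, with differences of 0.69 (SE 0.143, edgeR adjusted p = 0.00633) and 0.38 (SE 0.0766, edgeR adjusted p = 0.00451). JUN stood at 0.02 in knockout cells, a difference of 0.37 (SE 0.0656, edgeR adjusted p = 0.000966), and DDX21 at -0.03, a difference of 0.28. CHAC1, a glutathione-degrading enzyme gene of the ATF4 pathway, stood at 6.86 and 7.93 CPM with vehicle and 7.41 and 7.13 CPM with LY500307 in control cells and was not called, and it rose at 1.45 in knockout cells, a difference of 1.47 (SE 0.311, edgeR adjusted p = 0.00705). ADAMTS5 and ZNF48 had differences of 1.12 and 0.76, both lost without LY500307 replicate 2, as was that of SNHG4.

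Of the matrix and protease list, 19 of 44 genes had a called difference, in both directions. MMP2 rose less in knockout cells, at 0.23, a difference of -0.77 (SE 0.0758, edgeR adjusted p = 2.95e-08). TIMP3 was at 0.17, a difference of -0.44 (SE 0.0715, edgeR adjusted p = 0.000313), MMP3 at -0.14, a difference of -0.93, PLAU at -0.02, a difference of -0.25, and COL6A3 fell further, at -0.75, a difference of -0.36. ADAMTS1 fell in control cells and stood at -0.02 in knockout cells, a difference of 0.33 (SE 0.05804, edgeR adjusted p = 0.000782). GABARAPL1 did not change detectably in knockout cells, at 0.02, a difference of -0.73 (SE 0.122, edgeR adjusted p = 0.000475), and SAMD9 stood at 0.01, a difference of -0.43 (SE 0.0749, edgeR adjusted p = 0.000695). The keratin genes KRT7, KRT18 and KRT8 had differences of -0.42, -0.32 and -0.66. SH2D1B at -1.42, SEMA6B at -1.30, SIGLEC15 at -1.13, DKK2 at -1.42 and CADPS at -1.48 had the most negative differences at 5 CPM or more in any group of either population, beside CLEC5A. CADPS reached that level in knockout cells only. In control cells it stood at 0.384 and 0.597 CPM with vehicle and 1.12 and 0.963 CPM with LY500307. The called differences of PLAU, KRT8, CADPS and CLEC5A were lost without LY500307 replicate 2. CLEC5A had no count with vehicle and 5 and 19 counts with LY500307, at least 6.62-fold higher over a floor of 3 counts for the group, and at least 2.73-fold without LY500307 replicate 2.

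**Figure D5:**
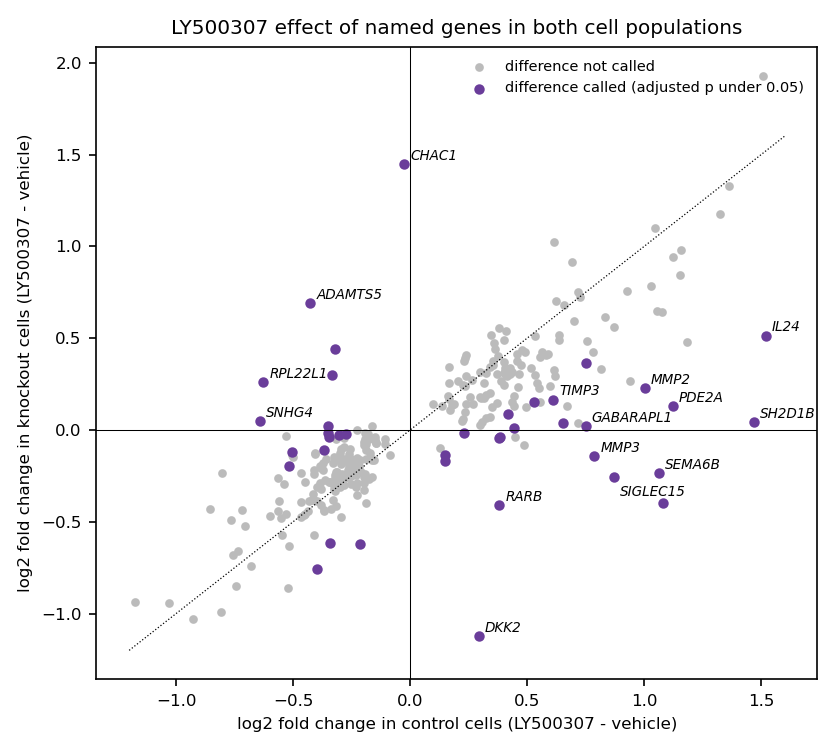
Log2 fold change of LY500307 minus vehicle in control cells (horizontal axis) and knockout cells (vertical axis) for 301 named genes, with the 39 whose difference between the populations was called marked. RPL22L1, MMP2, MMP3 and SH2D1B lie away from the diagonal of equal responses.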

How the data were processed

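Whole-number read counts per gene symbol were deposited by the authors for each library, and the submitters' processing notes name bcl2fastq, TopHat2 2.0.8b, HTSeq and the build hg19. The labels' protocols name RNA from spin columns, 50 bp single-end reads, and 2 kit documents, for stranded mRNA and for total RNA. The strand setting was not given in the sources used here, and reads of overlapping antisense partners may be mixed. The labels also speak of combined reads of duplicates, yet the files of duplicates differed beyond counting noise (in control cells chi-square was 3.05 and 3.37 times its degrees of freedom), and all were kept as separate samples.

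The 5 closing summary lines were removed, and 0 sample columns were left unused. The files list 23228 genes, 5520 of them without a count, and 13498 passed filterByExpr. edgeR 4.0.16 in R 4.3.3 fitted 1 quasi-likelihood model over 8 libraries, with 4 group means, with TMM scaling, 4 residual and 30.1 prior degrees of freedom and a biological coefficient of variation of 3.95%. Tests were two-sided, adjusted by Benjamini-Hochberg over all genes tested at 0.05, and the procedure was tested on simulated counts. Simulated log2 changes of -1 and 1 were called in 50 of 50 genes each, those of -0.5 in 36 of 50 and of 0.5 in 45 of 50. The changed genes were drawn from those expected to hold at least 50 counts on average, as many up as down. They were a far smaller share of genes than was called here. The simulation therefore cannot show how the calls depend on scaling, or how scarce genes behave. Smaller changes, such as the median of 0.284 among called genes, were not simulated. Alternatives were DESeq2 1.42.0 (size factors and Wald test), other filters, library totals, a replicate block and leaving out libraries. Same-numbered libraries deviated together only weakly (correlations 0.073 to 0.210 between groups, not all above 0.1), so numbers were not taken to pair samples. Floors cover counting error only.

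The members and gene lists were chosen with earlier results of these data known. Named genes are the 12 largest rises and 12 largest falls among called genes of at least 5 CPM in a group with no overlap, the 8 and 8 largest CPM differences, up to 6 called members of a list by smallest p (or 2 by level), KDM1A, ESR1, ESR2 and GPER, and the 6 and 6 largest differences between populations. Uncharacterised, small and antisense RNAs were left out, and a few genes and 1 list are not reported here. Added after values were seen were cell type markers, TUBGCP6, the 5 genes near 0 in control cells and the genes of the closing part. Positions and coding starts are those of the GENCODE 44 annotation on GRCh37 (18915 genes found under their symbol, 2126 under an older one and 2187 not found), and promoters came from RefSeq on GRCh38.p14.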

Additional observations from a re-analysis of the deposited data

Results flagged for a closer look

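The response to LY500307 differed between knockout and control cells by the test of the difference itself for 40 genes named above, out of 218 (1.62%) over all genes. Values are the log2 response in knockout minus that in control cells. Knockout cells had the more positive response for CHAC1 at 1.47, ADAMTS5 at 1.12, RPL22L1 at 0.89, ZNF48 at 0.76, SNHG4 at 0.69 and SLC25A15 at 0.63. It was smaller for SNHG1 at 0.38, JUN at 0.37, ADAMTS1 at 0.33, RPS23 at 0.32, RRS1 at 0.31, DDX21 at 0.28, CDK6 at 0.26 and ATF4 at 0.25.

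Knockout cells had the more negative response for CADPS at -1.48, SH2D1B at -1.42, DKK2 at -1.42, SEMA6B at -1.30, SIGLEC15 at -1.13, IL24 at -1.0, PDE2A at -0.99, MMP3 at -0.93, MMP2 at -0.77 and GABARAPL1 at -0.73. The next were KRT8 at -0.66, ID3 at -0.62, TIMP3 at -0.44, SAMD9 at -0.43, BBS2 at -0.43, KRT7 at -0.42, TOP2A at -0.41 and NDRG1 at -0.39. EREG stood at -0.38, COL6A3 at -0.36, TUBA1A at -0.34, ITGB5 at -0.33, KRT18 at -0.32, MCM5 at -0.28 and PLAU at -0.25. The fitted value of CLEC5A, -6.53, depends on the prior count because its vehicle control libraries had no count, and it is no bound.

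Without control LY500307 replicate 2 the call of the difference was lost for ADAMTS5, ATF4, BBS2, CADPS, CDK6, CLEC5A, ID3, IL24, ITGB5, KRT8, MCM5, NDRG1, PLAU, RRS1, SNHG4, TUBA1A and ZNF48. No group has enough libraries for a test of outlying samples.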

How the results depend on the processing

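With library totals in place of TMM, 2831 genes were higher and 1011 lower, and 337 of 371 named results kept their side of the threshold. Of these 371, 321 were called with TMM and 50 were not, so only the 321 could lose a call. Without a filter, 350 genes differed between populations. DESeq2 called 1163 genes higher and 1467 lower. With the replicate block, 1989 genes were higher, 2282 lower and 643 differed between populations, although replicate numbers are not known to pair samples. Leaving out 1 control library gave 941 to 1015 higher and 1205 to 1311 lower, and leaving out 1 library of any group gave 95 to 262 that differed between populations. Without vehicle replicate 2 and LY500307 replicate 2 together, an alternative chosen after seeing the data, 483 were higher and 660 lower, and 108 of 371 named results were no longer past the threshold. The alpha and beta tubulins kept 6 lower calls in each of these fits. No called named gene changed sign in any of these fits, while up to 12 of 50 that were not called did, the most with library totals, CHAC1, SNHG11 and TUBD1 among them. Most called named genes were chosen by their values in these libraries, which every fit reuses, so kept signs are no separate support. Each group held 2 libraries, and below about 3 CPM single libraries decided calls such as EPCAM and CLEC5A. Calls of abundant genes with small changes were also lost without 1 library, those of MMP1, HSPA8 and KDM1A among them.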

Other observations

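Small nucleolar RNA genes, which the naming rule leaves out and which were looked at after values were seen, were lower with LY500307 beside their host genes. Of 364 listed SNORA and SNORD genes 106 were tested, of which 24 were called lower and 0 higher, with a median of -0.74, against a median of 0.229 over all genes of the lowest quintile of level. Their summed level was 129.1 and 138.3 CPM with vehicle and 74.16 and 87.76 CPM with LY500307. In knockout cells 7 were lower, with a median of -0.35, and the difference between the populations was called for 0 of the 106. Most are scarce, with a median level of 0.613 CPM and at most 6.646 CPM. Introns of host genes release such RNAs, and whether these reads came from host transcripts or from the mature RNAs was not tested.

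Genes under 5 CPM also held large changes. CYP11A1, the enzyme that starts steroid synthesis from cholesterol, went from 0.426 and 0.555 CPM with vehicle to 2.83 and 2.64 with LY500307, a log2 fold change of 2.47 (SE 0.338). NR4A3, an orphan nuclear receptor gene, went from 0.171 and 0.0427 to 0.734 and 0.892 CPM, or 2.88 (SE 0.598). PDGFRB, a growth factor receptor gene, went from 0.895 and 0.896 to 2.94 and 2.85 CPM, or 1.69 (SE 0.295). NUP210 and MAL2 were called lower at -2.13 and -1.45, with vehicle replicate 2 at 4.56 and 3.33 CPM against 1.79 and 0.938 in replicate 1. Without vehicle replicate 2, NUP210 was at -1.30 (edgeR adjusted p = 0.0234), and MAL2 was not called at -0.27 (edgeR adjusted p = 0.749). MAL2 was also not called without LY500307 replicate 1, at -1.44 (edgeR adjusted p = 0.0505), while CYP11A1, NR4A3 and PDGFRB were called without any 1 control library.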
